A study of Mus musculus with 20 samples.

Results

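Described here are 8 genes of sterol synthesis, oxysterol formation and cholesterol export (Ch25h, Hmgcs1, Sqle, Cyp51, Idi1, Insig1, Abca1 and Abcg1) in lungs from mouse dams instilled with carbon black while pregnant. The members were chosen with earlier results of these data known, and their probes were found by gene name on the array. All 8 were present, with 14 probes among the 30143 probes kept for testing. Each gene was represented by its brightest kept probe, out of 19915 genes. All 14 probes gave a lung signal well above background on all 20 arrays, and none was saturated.

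The mice were time-mated, nulliparous, young adult C57BL/6BomTac females, 5 dams in each of 4 groups. The control dams received the water vehicle alone, and the exposed dams received Printex 90 carbon black, an industrial soot-like nanoparticle, which over the whole pregnancy came to 11 µg per animal in the low group, 54 µg in the medium group and 268 µg in the high group. Every dam was instilled through the trachea at days 7, 10, 15 and again 18 of gestation, the exposed ones with 2.75, 13.5 or 67 µg each time, and lungs were taken 26 to 27 days after exposure, once the litters were weaned. All 4 groups therefore shared pregnancy, lactation and the instillation itself. Lung RNA labelled with Cy5 was hybridised against a universal mouse reference RNA labelled with Cy3, on 1 array per dam and with no dye swap, so that a gene's value is its log2 ratio to that reference and levels of different genes cannot be set against each other.

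Cholesterol is built from acetyl-CoA through the mevalonate pathway. When sterols run short in the endoplasmic reticulum, SCAP carries the transcription factor SREBP-2 out of it to the proteases that cut it free. The freed factor switches on the enzymes of that pathway and Insig1, whose protein holds SCAP back once sterols return. Oxysterols, cholesterol molecules that carry an added hydroxyl group, block this transport through the INSIG proteins. They also activate the LXR receptors, which switch on the cholesterol exporters ABCA1 and ABCG1. In the lung these genes serve alveolar type 2 cells, which make the lipids of surfactant, and alveolar macrophages, which clear them, and 25-hydroxylase is made by activated macrophages.

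At the high dose Ch25h, which makes 25-hydroxycholesterol, was 1.81-fold as high as in control lungs and was the only one of the 8 genes to pass the test (limma, log2 difference 0.85 ± 0.21 SE, n = 5 dams each, adjusted p = 0.0494). The call is at the edge of the threshold and was lost in 22 of 34 alternative settings. The synthesis enzymes and the exporters did not pass at any dose. Among the 20 dams, whatever their dose, Hmgcs1, Idi1, Sqle, Cyp51 and Insig1 were high or low together, and Abca1 and Abcg1 were low where these were high.

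The promoters of the genes that varied together, and of Ch25h and Abca1 for comparison, are shown so that they can be searched for motifs known from sterol-regulated promoters. RefSeq promoter windows of GRCm38.p6 were found for 6 of the 8 genes, and the 250 bases before the start site are printed 5′ to 3′ along the gene's strand. Capitals mark matches, on either strand, to the sterol regulatory element core CACCCCAC or its relaxed form TCACNCCAC, to the NF-Y element CCAAT, which is capitalised below as its reverse complement where it lies on the opposite strand, and to the palindromic E-box CACGTG. The relaxed sterol element and the core overlap in Hmgcs1.
Hmgcs1 (chr13:119690101-119690350, plus strand): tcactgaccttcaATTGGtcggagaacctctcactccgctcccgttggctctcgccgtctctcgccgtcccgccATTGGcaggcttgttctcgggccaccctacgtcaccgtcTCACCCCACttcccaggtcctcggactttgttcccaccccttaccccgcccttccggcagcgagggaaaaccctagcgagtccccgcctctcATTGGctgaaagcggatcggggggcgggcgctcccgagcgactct
Idi1 (chr13:8885356-8885605, plus strand): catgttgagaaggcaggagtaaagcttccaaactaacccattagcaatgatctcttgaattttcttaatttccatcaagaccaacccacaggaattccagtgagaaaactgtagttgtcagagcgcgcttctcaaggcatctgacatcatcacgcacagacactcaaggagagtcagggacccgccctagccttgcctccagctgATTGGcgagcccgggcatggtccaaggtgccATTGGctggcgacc
Cyp51 (chr5:4104698-4104947, minus strand): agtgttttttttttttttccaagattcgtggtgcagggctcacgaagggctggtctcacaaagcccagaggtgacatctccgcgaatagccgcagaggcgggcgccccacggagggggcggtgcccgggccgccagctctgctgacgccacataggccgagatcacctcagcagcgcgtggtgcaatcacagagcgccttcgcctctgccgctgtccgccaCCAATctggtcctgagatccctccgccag
Insig1 (chr5:28071162-28071411, plus strand): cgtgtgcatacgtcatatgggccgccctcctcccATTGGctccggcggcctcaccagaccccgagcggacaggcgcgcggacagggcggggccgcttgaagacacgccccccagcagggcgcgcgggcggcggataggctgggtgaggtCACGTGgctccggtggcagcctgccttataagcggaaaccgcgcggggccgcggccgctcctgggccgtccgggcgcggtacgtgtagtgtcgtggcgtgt
Abca1 (chr4:53159896-53160145, minus strand): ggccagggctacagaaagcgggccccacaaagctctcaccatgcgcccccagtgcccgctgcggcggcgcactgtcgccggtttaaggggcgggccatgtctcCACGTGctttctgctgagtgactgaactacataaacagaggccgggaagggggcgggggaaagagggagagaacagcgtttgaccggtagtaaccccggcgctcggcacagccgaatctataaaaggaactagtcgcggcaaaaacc
Ch25h (chr19:34475149-34475398, minus strand): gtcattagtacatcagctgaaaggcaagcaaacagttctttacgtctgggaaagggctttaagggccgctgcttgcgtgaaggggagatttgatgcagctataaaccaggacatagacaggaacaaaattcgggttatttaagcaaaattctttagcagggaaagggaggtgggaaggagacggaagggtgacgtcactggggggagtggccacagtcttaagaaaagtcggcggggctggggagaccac

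The Hmgcs1 window held the sterol element TCACCCCAC between bases -137 and -129 from the start site, and 3 NF-Y matches. Of the 32851 promoter windows in the table, 1.05% held the relaxed sterol element and 2.58% its core. Idi1, Cyp51 and Insig1 held no sterol element in these letters, but each held an NF-Y match, as did 33.8% of all windows. NF-Y is the factor that binds next to SREBP on many sterol-regulated promoters. Insig1 and Abca1 each held the E-box, found in 6.02% of windows. The Ch25h window held none of these motifs. Sqle and Abcg1 are named without a sequence.

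Lung markers identified the tissue: all 6 lung genes listed (Sftpc, Sftpa1, Sftpb, Scgb1a1, Ager and Cldn5) were kept, and their mean log2 ratio to the reference lay between 3.70 and 4.75 on every array. The median Cy5 signal of an array was 161.5 to 246.5 intensity units over a local background of 80 to 83, and 64.0% to 78.3% of features were well above background. All 4 groups were present on slides 1 to 3, the medium dose was missing from slides 4 and 5, and slide 6 carried medium-dose dams 49 and 50 alone. On slides 1 to 5 each group always had the same place on the slide, so place and dose cannot be told apart. Each array was 1 dam, and RNA was not pooled.

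Hmgcs1 makes HMG-CoA, an early intermediate of the pathway. Its log2 ratios were 0.041, 0.23, -0.43, -0.21 and -0.12 in control dams 4, 7, 14, 15 and 18, then 0.15, -0.029, 0.14, -0.31 and -0.28 in low-dose dams 25, 27, 28, 31 and 36, then 0.18, -0.11, -0.088, 0.20 and -0.077 in medium-dose dams 46, 47, 48, 49 and 50, and 0.031, 0.42, 0.28, 0.14 and 0.22 in high-dose dams 60, 62, 63, 64 and 65. The high-dose dams were all above 0, and 2 of them lay above every control, but the groups overlapped. The difference between high dose and control was 0.31 ± 0.12 (SE, 95% interval 0.071 to 0.56), a 1.24-fold higher ratio, and did not pass after adjustment (limma, unadjusted p = 0.0141, adjusted p = 0.171). The difference was positive on 4 of 5 slides. The other 2 Hmgcs1 probes, both dimmer, gave smaller differences of 0.13 and 0.094.

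Idi1 turns isopentenyl pyrophosphate into its reactive isomer, the second building block of the pathway. Its log2 ratios were 0.19, 0.38, -0.38, -0.083 and -0.0087 in controls, next 0.22, 0.19, 0.18, -0.38 and -0.14 in low-dose dams, next 0.37, 0.0062, -0.33, 0.26 and 0.15 in medium-dose dams and 0.068, 0.77, 0.47, 0.19 and 0.27 in high-dose dams, with dams in the same order as for Hmgcs1. Dam 62 was the highest of all 20 and the other high-dose dams lay among or just above the controls. The difference between high dose and control was 0.33 ± 0.16 (SE, adjusted p = 0.290), and the dimmer Idi1 probe gave 0.052. The coordinates in the array files place both Idi1 probes on chromosome 2 (build mm7), whereas the RefSeq table of GRCm38.p6 has the gene on chromosome 13, so the locus that these probes report was not settled.

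Sqle oxidises squalene, a late control point of the pathway. Its log2 ratios were -1.18, -0.97, -1.75, -1.59 and -1.49 in controls, next -1.33, -1.47, -1.40, -2.07 and -1.55 in low-dose dams, next -1.25, -1.40, -2.03, -1.41 and -1.95 in medium-dose dams and -1.66, -0.93, -0.80, -1.33 and -1.26 in high-dose dams. High-dose dams 62 and 63 were above every control, dam 60 was below all but 1 of the controls, and the groups overlapped. The difference was 0.20 ± 0.19 (SE) for high dose against control, -0.21 for medium and -0.17 for low dose, with adjusted p-values of 0.635, 0.631 and 0.871. Between high and medium dose it was 0.41 ± 0.19 (SE, unadjusted p = 0.0415, adjusted p = 0.488).

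Cyp51, which removes a methyl group from lanosterol, ranged between -1.58 and -0.86 in high-dose dams and between -1.76 and -1.23 in controls, with a difference of 0.21 ± 0.15 (SE, adjusted p = 0.497). Its 2 dimmer probes gave 0.13 and 0.18. Insig1, the sterol-dependent brake on SREBP release, ranged between -0.63 and 0.0022 in high-dose dams and between -0.85 and -0.13 in controls, with a difference of 0.087 ± 0.15 (SE, adjusted p = 0.825). The dimmer Insig1 probe gave 0.043. Within slides the Insig1 difference was positive on 2 of 5 slides, so that its sign was not settled.

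Abca1 exports cholesterol and phospholipid to lipid-poor apolipoprotein A-I. Its log2 ratios were 0.83, 1.15, 1.58, 1.51 and 1.51 in controls, next 1.40, 1.64, 1.62, 1.91 and 1.60 in low-dose dams, next 1.21, 1.31, 1.97, 1.33 and 1.98 in medium-dose dams and 1.56, 1.23, 1.20, 1.45 and 1.70 in high-dose dams. Of the low-dose dams, 4 lay above every control, yet the difference of 0.32 ± 0.17 (SE, 95% interval -0.029 to 0.66) did not pass (adjusted p = 0.703), and control dam 4 alone was under 1. The differences were 0.24 at the medium and 0.11 at the high dose (adjusted p = 0.520 and 0.784). Within slides the low-dose dam was above its control on 5 of 5 slides and the medium-dose dam on 3 of 3.

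Abcg1 exports cholesterol to HDL and is the exporter whose loss fills lung macrophages with lipid in mice. Its log2 ratios were 1.97, 1.72, 2.43, 1.90 and 2.27 in controls, next 2.04, 2.18, 2.26, 2.42 and 2.18 in low-dose dams, next 1.91, 2.28, 2.38, 2.36 and 2.83 in medium-dose dams and 2.42, 2.04, 1.67, 2.05 and 2.04 in high-dose dams. Medium-dose dam 50 was the highest and high-dose dam 63 the lowest of the 20. The differences from control were 0.15 (low), 0.29 ± 0.15 (medium) and -0.018 ± 0.15 (high; SE, adjusted p = 0.854, 0.396 and 0.969). High-dose lungs lay 0.31 below medium-dose lungs (adjusted p = 0.533). Within slides the medium-dose dam was above its control on 1 of 3 slides.

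Ch25h, cholesterol 25-hydroxylase, carries the one passing difference. Its log2 ratios were 1.87, 1.80, 2.22, 1.50 and 1.65 in controls, next 1.75, 1.57, 1.58, 2.10 and 2.33 in low-dose dams, next 1.67, 2.40, 1.67, 2.52 and 2.36 in medium-dose dams and 1.97, 2.88, 3.11, 2.58 and 2.76 in high-dose dams. Dams 62, 63, 64 and 65 of the high dose lay above every control, and dam 60 lay below control dam 14, so the groups overlapped. At the medium dose dams 47, 49 and 50 lay above every control and dams 46 and 48 lay among the lower controls.

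Ch25h averaged 2.66 ± 0.43 in high-dose lungs and 1.81 ± 0.27 in control lungs (SD, n = 5 each), a log2 difference of 0.85 with a 95% interval of 0.41 to 1.30 (limma, adjusted p = 0.0494). As a fold this is 1.81, with an interval of 1.33 to 2.46. The log2 difference is larger than the SD of either group, though the high-dose dams alone spanned 1.97 to 3.11. By its p-value Ch25h stood at place 399 of 30143 probes, and its difference was higher than that of 99.8% of them. Within slides the high-dose dam was above its control on 5 of 5 slides, by 0.099 on slide 1, which carries dam 60, and by 0.89 to 1.12 on the others. The call was lost without high-dose dam 62, 63, 64 or 65, without control dam 4, 7, 15 or 18, without low-dose dam 25, 27, 28 or 31 and without medium-dose dam 47 or 50, with adjusted p-values between 0.0529 and 0.127. With the lung channel alone, normalised with the use of both channels, the difference was 0.92 with an adjusted p of 0.267. The difference was 0.32 ± 0.21 (SE, adjusted p = 0.515) at the medium and 0.061 ± 0.21 (adjusted p = 0.965) at the low dose. Between high and medium dose it was 0.54 ± 0.21 (SE, unadjusted p = 0.0195, adjusted p = 0.416). Within slides the medium-dose dam was above its control in Ch25h on 1 of 3 slides and the low-dose dam on 2 of 5. With slide as a block the medium-dose difference was 0.13 (limma, adjusted p = 0.88).

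**Figure D1:**
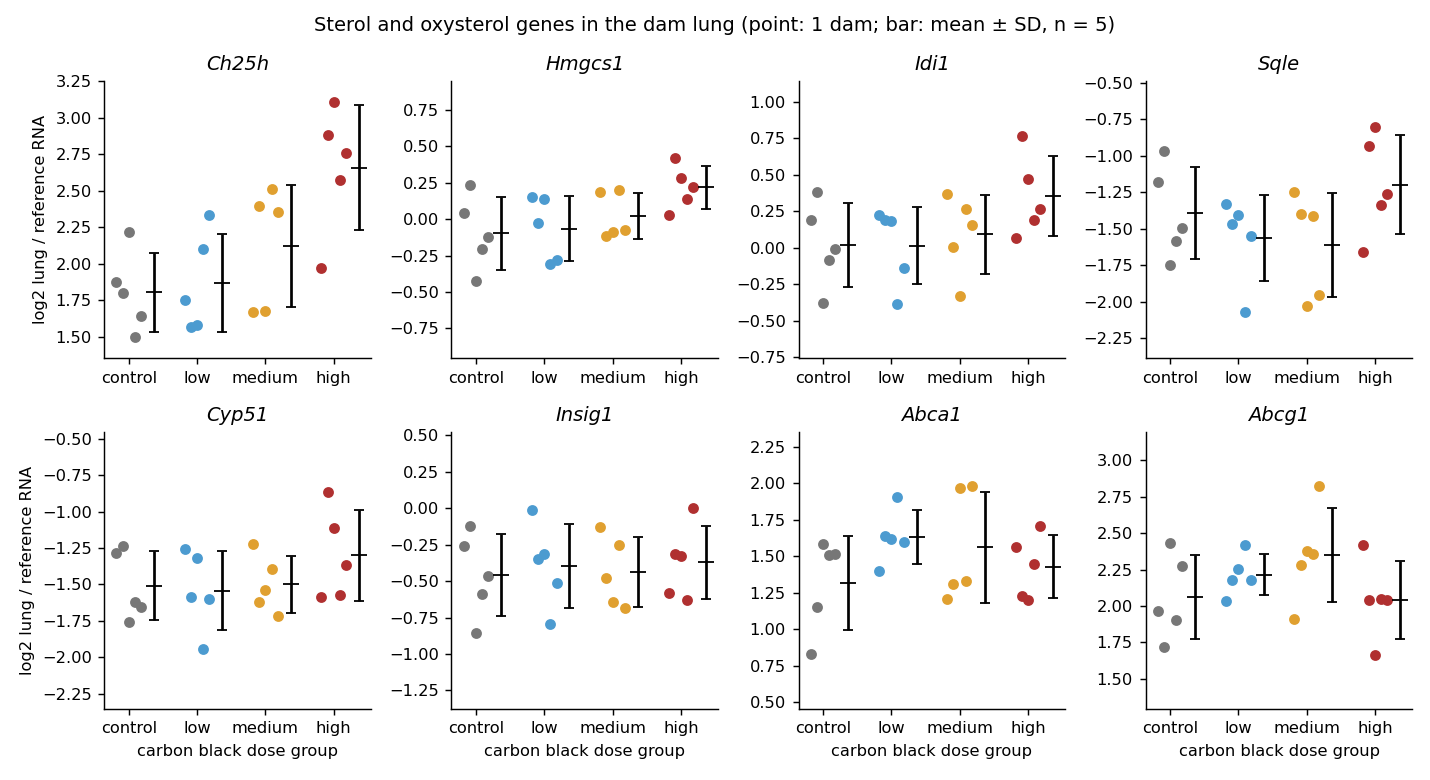
Log2 ratio of lung over reference RNA (vertical axis, each panel spanning the same range) for the 8 genes in control, low-, medium- and high-dose dams; each point is 1 dam and the bar beside the points is the mean ± SD of 5 dams. Ch25h is highest in 4 of the 5 high-dose dams, between 2.58 and 3.11, and the groups overlap for every gene.

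Counted over the members, 1 of 8 genes passed for high dose against control, where 1.35% of all 30143 probes did (407, 214 higher and 193 lower). At the medium and low dose 0 of 8 passed, where 0.00332% of probes did in each case, and for high against medium dose 0 of 8 passed, where 0.0896% did. At an unadjusted p under 0.05 the limma fit gave 2 of 8 for high dose against control (background 17.3%), 0 for medium dose (14.3%), 0 for low dose (7.36%) and 2 for high against medium dose (9.80%). In 0 of the 8 genes did the dams of 2 groups fail to overlap, in any of the 4 comparisons, where the share over all probes was 3.84% for high dose, 3.26% for medium dose and 1.51% for low dose against control and 1.25% for high against medium dose. The median difference of the 8 genes for high dose against control was 0.20, with 7 of 8 positive, and that of all probes was -0.0058. The 8 genes were chosen with earlier results of these data known, so their counts are not those of an unselected set.

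**Figure D2:**
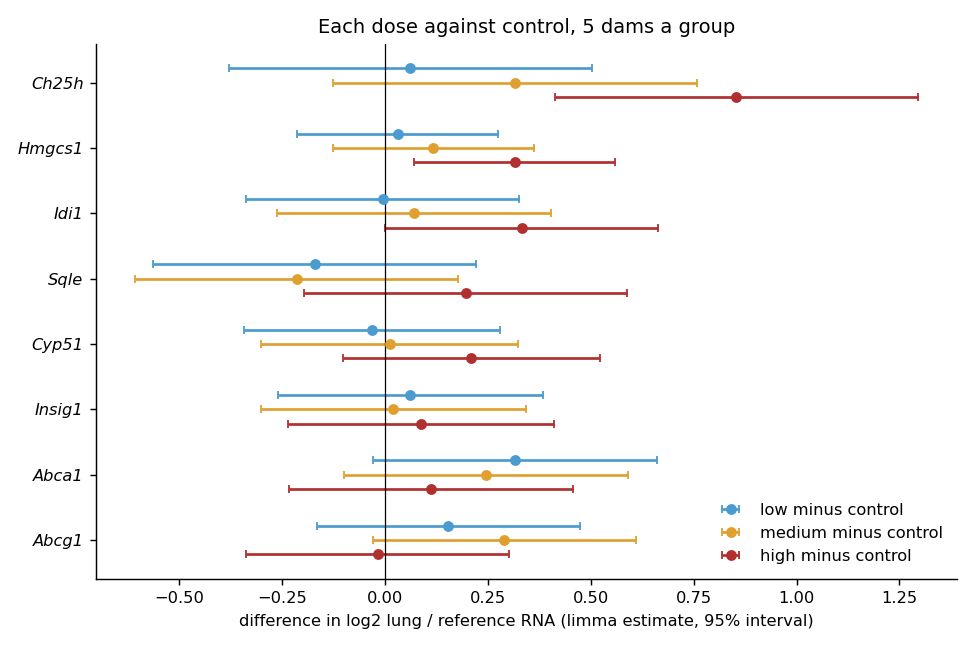
Difference in log2 lung over reference ratio from control (horizontal axis) for each gene at the low, medium and high dose, with points for the limma estimate and bars for its 95% interval. The high-dose interval lies above 0 for Ch25h (0.41 to 1.30) and Hmgcs1 (0.071 to 0.56), and every low- and medium-dose interval includes 0.

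In 4 lists of pathway genes, Ch25h alone passed for high dose against control, where 1.35% of all probes passed. Of 20 sterol synthesis enzymes, 0 passed for high dose against control and 3 had higher values at an unadjusted p under 0.05 (none lower), where 17.3% of all probes had such a p. In this list 14 of 20 differences were positive, with a median of 0.095. Over all 19915 genes 46.7% were positive and the median was -0.0090. Further enzymes named by their small p were Hsd17b7, a ketosteroid reductase of the late pathway, at 0.27 ± 0.12 (SE, adjusted p = 0.248), and Sc5d, which introduces a double bond into the sterol ring, at 0.26 ± 0.12 (adjusted p = 0.272).

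Over all probes, 1.35% passed and 17.3% had an unadjusted p under 0.05 for high dose against control. Of 15 genes of SREBP control and cholesterol uptake, 0 passed and 1 had a lower value at an unadjusted p under 0.05, with a median of 0.031. That gene was Vldlr, a lipoprotein receptor, at -0.22 ± 0.075 (SE, adjusted p = 0.140). It was followed by Srebf1, which encodes SREBP-1, at 0.21 ± 0.11 (adjusted p = 0.341), and Mbtps1, the protease that makes the first SREBP cleavage, at -0.11 ± 0.063 (adjusted p = 0.361). Of 20 genes listed for cholesterol efflux and LXR action, 0 passed and 3 had lower values at an unadjusted p under 0.05, with a median of 0.011. These were Acat1 at -0.14 ± 0.054 (adjusted p = 0.178), Pltp, the phospholipid transfer protein, at -0.19 ± 0.081 (adjusted p = 0.231), and Nr1h2, the LXR-beta receptor, at -0.13 ± 0.057 (adjusted p = 0.239). Acat1 is a mitochondrial thiolase, so its place on this list is doubtful.

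Of 12 genes of oxysterol synthesis and sensing, 10 were kept, and Ch25h alone of these passed, where 1.35% of all probes did. The median was 0.023. At an unadjusted p under 0.05, 1 was higher and 1 lower, where 17.3% of all probes had such a p. Cyp27a1, which makes 27-hydroxycholesterol, differed by -0.37 ± 0.11 (SE, unadjusted p = 0.00273, adjusted p = 0.0889), the other way from Ch25h. Osbpl8, an oxysterol-binding protein, differed by 0.097 (adjusted p = 0.508) and Cyp7b1, which degrades oxysterols, by 0.076 (adjusted p = 0.780). Gpr183, the receptor on immune cells for a dihydroxy derivative of the Ch25h product, named after its values were seen, differed by 0.039 (adjusted p = 0.875). At the medium and low dose 0 genes of the 4 lists passed, where 0.00332% of all probes did in each case.

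**Figure D3:**
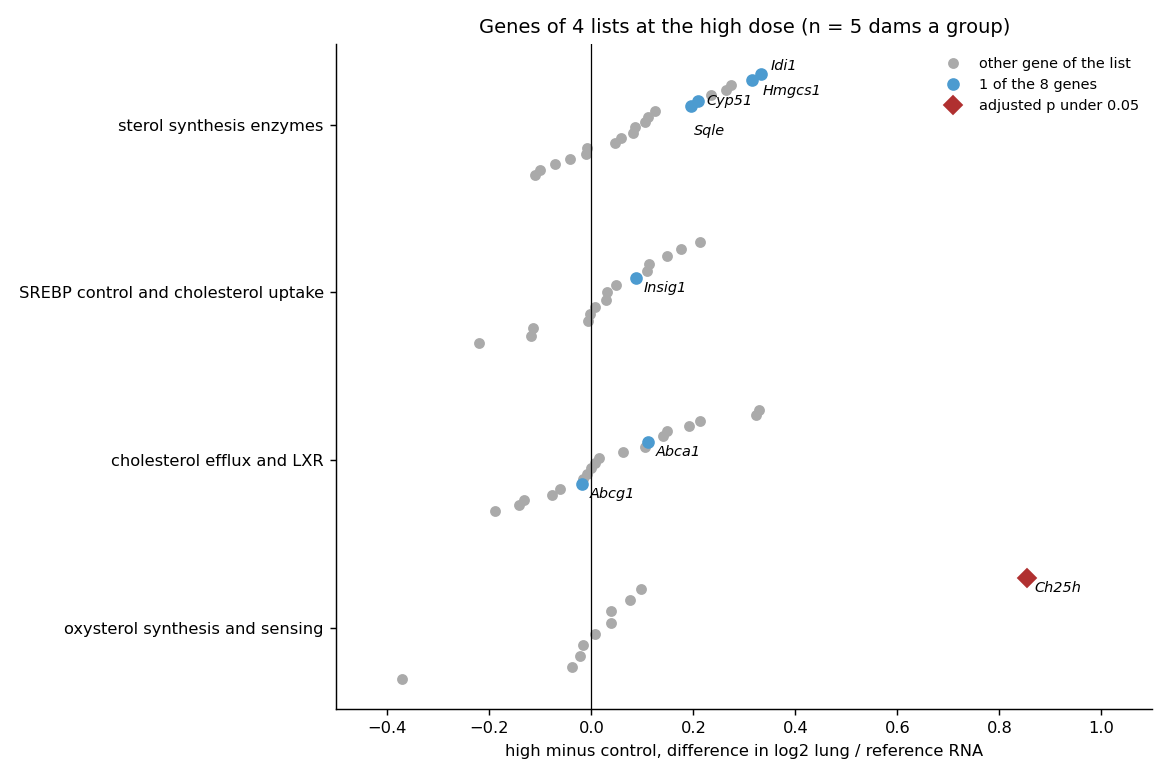
Difference in log2 lung over reference ratio between high-dose and control lungs (horizontal axis) for every kept gene of 4 lists, with the 8 genes in blue, other genes in grey and genes that passed the test as red diamonds (n = 5 dams a group). Ch25h lies at 0.85, apart from its own list, whose median is 0.023.

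Some markers of other cells differed between high-dose and control lungs too, where 1.35% of all probes passed. In whole lung RNA, fewer cells of a type and less RNA per cell cannot be told apart. Of 8 markers of macrophages that take up lipid or particles, 3 rose: Trem2 by 0.96, Mmp12 by 0.98 and Msr1 by 0.84 (adjusted p = 0.00220, 0.0178 and 0.0410). All 8 differences were positive, with a lowest value of 0.13 and a median of 0.82. The summed Cy5 signal of the 8 lay between 45680 and 127100 in high-dose dams and between 46030 and 56680 in controls. On all 20 arrays 7 of the 8 were well above background. Among 8 alveolar macrophage markers, Siglecf fell by 0.93 (adjusted p = 0.00436) and none rose; 4 of the 8 differences were positive, 1 of them at an unadjusted p under 0.05, with a highest value of 0.37 and a median of -0.0091. Of 7 neutrophil markers, Camp was lower by 1.33 (adjusted p = 0.0293). The median difference of these 7 was -0.40 at the high, -0.53 at the medium and -0.62 at the low dose, so it was not largest at the high dose. Their mean ratio per dam ranged between 2.71 and 3.74 in controls and between 2.25 and 2.67 in high-dose dams. Of 6 B and plasma cell markers, Jchain and Tnfrsf17 rose by 1.78 and 0.82 (adjusted p = 0.0194 and 0.0208). In this list 4 of 6 differences were positive, with a lowest value of -0.10 and a median of 0.20. None of the markers of type 2 cells, adipocytes, cardiac muscle or mesenchymal cells passed.

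Over the 20 dams the mean ratio of the lipid- or particle-uptake macrophage markers and Ch25h correlated with r = 0.726 (permutation test, adjusted p = 0.0154 over 96 relations of the 8 genes with marker means and array measures). The permutations ran over all dams whatever their group, so this p also takes in the dose difference that both share. The 8 genes and the marker lists were also chosen with earlier results of these data known. Spearman's rho was 0.576 (adjusted p = 0.111), and r was 0.652 without the 2 dams farthest from the median of the marker mean. In deviations from the dose group means r was 0.417, in deviations from slide means 0.790, and within the 2 scan dates that hold over 6 arrays 0.947 (8 arrays) and 0.781 (7 arrays). The same marker mean correlated with Hmgcs1, Idi1 and Cyp51 at r = 0.629, 0.618 and 0.622 (adjusted p = 0.0366, 0.0382 and 0.0382), where rho did not pass (adjusted p = 0.135, 0.214 and 0.208) and r was 0.465, 0.404 and 0.409 without the 2 farthest dams; in deviations from the group means r was 0.388, 0.440 and 0.570, and from slide means 0.709, 0.715 and 0.696. The part of these cells in the Ch25h difference was not tested.

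The 4 genes closest to Ch25h over the 20 arrays, out of 19806 ranked, were Lemd1 (r = 0.849), Il1rn, the natural antagonist of interleukin-1 receptors (0.849), Vnn1, a pantetheinase (0.844), and A430093F15Rik (0.842). Each was itself higher at the high dose than in controls, Vnn1 by 1.09 (adjusted p = 0.00817), Lemd1 by 0.79 (0.00326), Il1rn by 0.52 (0.0375) and A430093F15Rik by 0.33 (0.00436, all adjusted p-values from limma). These 4 were chosen by likeness to Ch25h over the same arrays, high-dose dams included, so their high-dose differences are not a separate result. In deviations from the dose group means their r with Ch25h was 0.658 to 0.716. None of the other 7 genes was near: the closest, Idi1, stood at place 1566.

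The 5 genes under SREBP control were alike instead from dam to dam. Over 20 dams the 10 pairs among Hmgcs1, Idi1, Sqle, Cyp51 and Insig1 had Pearson's r of 0.705 to 0.920 and Spearman's rho of 0.771 to 0.958. Permutation p-values adjusted over the 28 pairs of the 8 genes were at most 0.00119 for r and 0.000280 for rho. The closest pair, Hmgcs1 and Idi1, had r = 0.920 with a permutation p of 1e-05, the smallest that 100000 permutations can give. Control dam 14 and low-dose dam 31 were low in all 5 genes, and high-dose dam 62 was high in 4 of the 5. In deviations from the dose group means r was 0.759 to 0.900.

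Abca1 and Abcg1 ran against these 5 genes. Their 10 pairs with the 5 had r of -0.818 to -0.491 and rho of -0.800 to -0.520 (adjusted p of at most 0.0381 for r and 0.0261 for rho), and the 2 exporters correlated with each other at r = 0.697 (rho = 0.671, adjusted p = 0.00159 and 0.00332). The strongest was Sqle against Abca1, r = -0.818: low-dose dam 31 and medium-dose dams 48 and 50, the 3 lowest in Sqle, were the 3 highest in Abca1, at 1.91 to 1.98. In deviations from the group means the 10 pairs had r of -0.858 to -0.547.

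**Figure D4:**
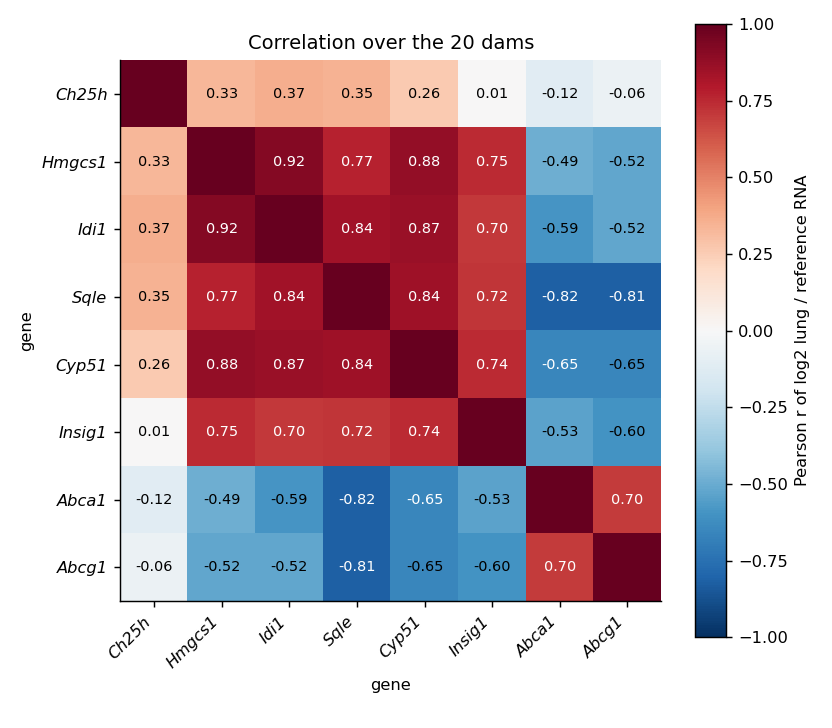
Pearson correlation of the log2 lung over reference ratio between each pair of the 8 genes over the 20 dams, on a colour scale between -1 (blue) and 1 (red). Hmgcs1, Idi1, Sqle, Cyp51 and Insig1 form a block of r from 0.705 to 0.920, their pairs with Abca1 and Abcg1 are between -0.818 and -0.491, and the Ch25h row stays between -0.115 and 0.367.

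The pattern was looked for within batches. Without the 2 dams farthest from the median of the first gene of each pair, r was 0.642 to 0.884 among the 5 genes and -0.841 to -0.486 with the exporters. In deviations from slide means it was 0.678 to 0.920 and -0.883 to -0.399. Within the 8 arrays of slides 1 and 2, scanned together, it was 0.368 to 0.945 and -0.827 to -0.265, and within the 7 arrays of slides 3 and 4 it was 0.750 to 0.953 and -0.938 to -0.521; the other 2 scan dates hold 3 and 2 arrays, too few for a value. All ratios share the reference channel of their array. With the lung channel alone the pairs among the 5 genes kept r of 0.445 to 0.897, those with the exporters spread over -0.779 to -0.0877, and r of Abca1 with Abcg1 was 0.309. This lung signal was normalised with the use of both channels, so it is not free of the reference channel.

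Ch25h did not pass with any of the other 7 genes. Its r with the 5 genes was 0.0075 to 0.367 and with Abca1 and Abcg1 -0.115 and -0.062 (adjusted p between 0.143 and 0.975), and in deviations from the group means its r with the 5 was -0.128 to 0.184. In deviations from slide means it was 0.102 to 0.504 with the 5 and -0.346 and -0.266 with Abca1 and Abcg1. Within the 8 arrays of slides 1 and 2 it was -0.382 to 0.469 with the 5 and -0.149 and 0.218 with the exporters, and within the 7 arrays of slides 3 and 4 it was 0.127 to 0.632 and -0.630 and -0.489. Without high-dose dams 62 and 63 its r with Hmgcs1, 0.332 over 20 dams, was 0.031.

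**Figure D5:**
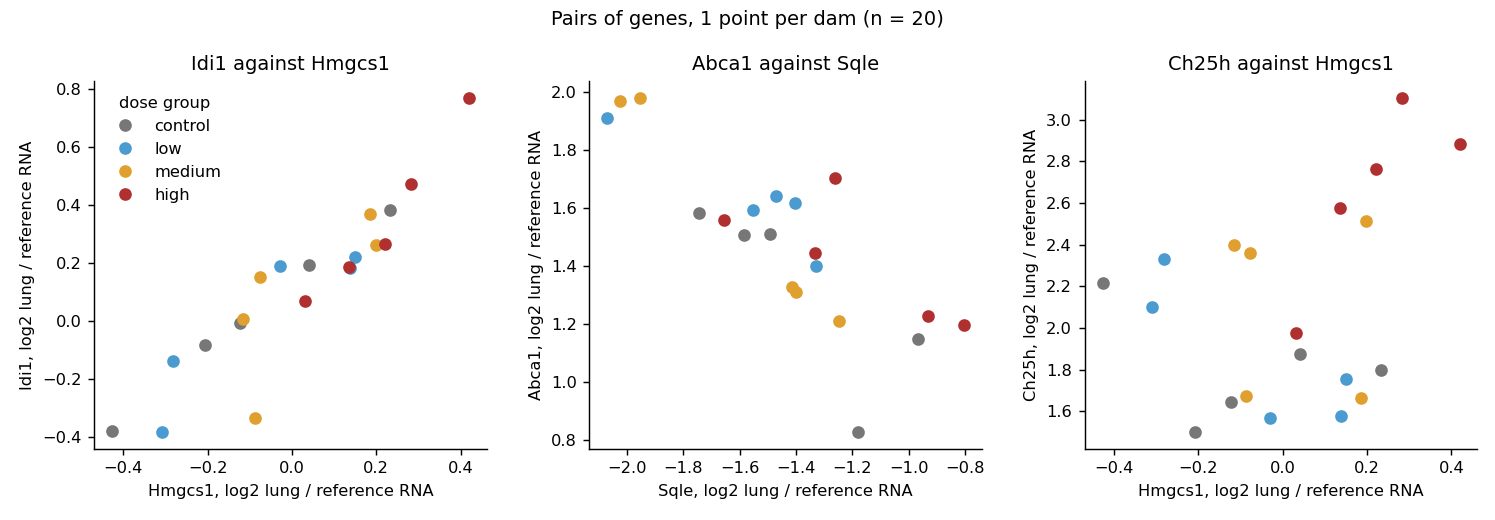
Log2 lung over reference ratios of 3 pairs of genes, 1 point per dam (n = 20) coloured by dose group. Idi1 follows Hmgcs1 (r = 0.920), Abca1 falls as Sqle rises (r = -0.818), and Ch25h against Hmgcs1 is more scattered (r = 0.332).

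Across all 19806 genes ranked, the 3 most like Hmgcs1 were Idi1 (r = 0.920), Cyp51 (0.876) and Mvd, the mevalonate pathway decarboxylase (0.876). Sqle stood at place 19 and Insig1 at place 21. Of the 19 other synthesis enzymes on the list, 11 were within the first 100 places and all 19 had a positive r, with a median of 0.689, whereas the median over all genes was -0.030. The weakest were Acat2 and Ebp, at 0.370 and 0.268. The 4 genes most like Abcg1 were Itga6, an integrin (r = 0.865), Agpat4, an acyltransferase of phospholipid synthesis (0.825), Abhd17c, a depalmitoylase (0.820), and Serinc5, a membrane protein (0.811). None of these 4 differed between high dose and control (adjusted p of 0.373 to 0.986).

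Marker means stood beside the dam-to-dam pattern as well. The mean of 5 mesenchymal markers correlated with Insig1 at r = 0.718 (rho = 0.677, adjusted p = 0.0154 and 0.0403), with Sqle at 0.633 (rho = 0.629, adjusted p = 0.0382 and 0.0594) and with Abcg1 at -0.672 (rho = -0.648, adjusted p = 0.0252 and 0.0488). Without the 2 dams farthest from its median these r were 0.668, 0.501 and -0.472, and in deviations from slide means 0.699, 0.553 and -0.601. The mean of 4 kept adipocyte markers correlated with Insig1 at r = 0.715 and with Abcg1 at -0.616, and that of 5 cardiac muscle markers with Abcg1 at -0.655 (adjusted p = 0.0160, 0.0382 and 0.0315; rho = 0.617, -0.737 and -0.690 with adjusted p = 0.0629, 0.0365 and 0.0403). Without the 2 farthest dams these 3 were 0.549, -0.689 and -0.507, and in deviations from slide means 0.729, -0.591 and -0.647. Within the 2 scan dates of 8 and 7 arrays, r was uneven for Sqle with the mesenchymal mean (0.303 and 0.870) and for Insig1 with the adipocyte mean (0.911 and 0.217). Adipocyte marker means per dam lay between 1.12 and 4.97 over all dams, a wider span than any of the 8 genes, and their part in the pattern was not tested. None of the 8 genes passed with the median signal of either channel or with the share of features above background. With median Cy3 signal, however, the 5 SREBP-controlled genes had r of 0.767 to 0.988 within the 7 arrays of slides 3 and 4. Within the 8 arrays of slides 1 and 2 it was -0.465 to 0.122. In deviations from slide means the share above background had r of 0.366 to 0.726 with the 5. In the same deviations median Cy5 signal had r of -0.71 with Abca1 and -0.525 with Abcg1. The part of array signal in the pattern was not tested.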

How the data were processed

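The members and the gene lists were chosen with earlier results of these data known. The authors deposited a value table of log2 lung (Cy5) over reference (Cy3) ratios without background subtraction, for which no source used here states the normalisation, and spot files of Feature Extraction with signals in intensity units and, per the file headers, a log10 ratio. Outlier-flagged spots were dropped and repeated spots averaged, and probes entered the test if Cy5 was well above background on at least 3 of 5 arrays in some group. One limma 3.58.1 model (R 4.3.3) was fitted over all 20 arrays, with Benjamini-Hochberg adjustment over 30143 probes, two-sided and called under 0.05; the steps were tested on simulated data. Correlations over dams used 100000 permutations over all 20 dams, without regard to dose group or slide. No p-value was computed for correlations in deviations from group or slide means. Without background subtraction, ratios of dim probes are drawn towards 0. Genes named are the 8 members, the 3 further genes of smallest p at the high dose in each list, and the 4 most like Ch25h, Hmgcs1 and Abcg1, some of which are not reported here; others are introduced as chosen after their values were seen, as are the marker genes that passed. Settings tried instead were other background corrections and ratios, centring, scaling, the Cy5 channel alone, other filters, slide or scan date as a block, fewer arrays, and each dam left out. The Cy5 signal alone was taken after a normalisation that used both channels.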

Additional observations from a re-analysis of the deposited data

How the results depend on the processing

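The Ch25h difference between high dose and control stayed positive in 34 of 34 alternatives, at 0.74 to 1.03 without each dam in turn, and its call was lost in 22. Beside the 14 omissions of a dam, these were normexp and loess from the spot files (0.89, adjusted p = 0.240), the same with 1 aberrant spot of low-dose dam 27 left out of its background model (0.89, 0.0750), the Feature Extraction ratio (0.99, 0.194), scaling between arrays (0.87, 0.0813), the Cy5 signal alone (0.92, 0.267), only probes well above background on all 20 arrays (0.85, 0.0600), 1 probe per gene (0.85, 0.0568) and the 2 groups alone (0.85, 0.0919); the last 3 differ by the probes or arrays entered, and for the others the cause was not tested. The other 31 differences of the 8 genes were called in 0 of their alternatives; over all 32 differences, 51 of 1088 values changed sign. The number of probes called for high dose against control, 407 in the fit reported, was 18 (17 higher, 1 lower) with normexp, 77 with the refitted background (50 higher, 27 lower), 13 with the Feature Extraction ratio (12 higher, 1 lower), 17 with Cy5 alone (17 higher), 680 with no filter, 213 with probes above background on every array (86 higher, 127 lower), 207 with 1 probe per gene, 1177 with slide as a block, 821 with scan date as a block, 58 with 2 groups alone, and 114 to 398 without each dam (114, 178, 219 and 252 without control dams 15, 18, 7 and 14, and 163 and 220 without high-dose dams 62 and 63). For medium dose, 1 in the fit reported, it was 0 with normexp, the Feature Extraction ratio, Cy5 alone and 2 groups alone, 4 with no filter, 2 with slide as a block, and 1 to 6 without each dam. For low dose, also 1, it was 0 with both normexp settings, the Feature Extraction ratio, Cy5 alone, slide as a block and 2 groups alone, and 0 to 2 without each dam. For high against medium dose, 27, it was 8 with normexp, the Feature Extraction ratio and slide as a block, 13 with no filter, 7 with probes above background on every array, 4 with scan date as a block, 1 with 2 groups alone, 0 without the 2 medium-dose arrays of slide 6, and 6 to 119 without each dam.

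The correlation alternatives were chosen after seeing the data. The median r among the 5 SREBP-controlled genes, 0.802, was 0.682 to 0.844 in 9 other settings and 0.766 to 0.816 without each dam, and with the exporters, -0.594, it was -0.684 to -0.515 and -0.636 to -0.547. Dam numbers are not shared between groups, so dams were not paired by number; slides were used instead, and with the slide as a block Ch25h at the high dose had an adjusted p of 0.0328. With 5 arrays a group and no dye swap, a dye effect of a probe is common to all arrays, and small differences of dim probes are limited by signal over background.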

Other observations

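For the 5 genes to which the likeness rule was not applied, some of the closest genes over the 20 arrays are given here, chosen after their values were seen and with no test of a shared theme. Abca1 was most like Mylip, an LXR-induced ubiquitin ligase (r = 0.900), followed by Zc3h11a (0.899), Mindy2 (0.894) and Cobll1 (0.879). Cyp51 was closest to CJ042244 (0.941) and then to Fdps, the farnesyl pyrophosphate synthase (0.936), and Sqle to Msmo1, a sterol demethylase (0.895), and then to Muc4, a mucin (0.878). Idi1 was closest to Hmgcs1 (0.920). Insig1 was closest to Aacs, which activates acetoacetate for lipid synthesis (0.909), followed by Mpc2 (0.871), Aldh1l1 (0.857) and Mrpl42 (0.846). None of Mylip, Fdps, Msmo1 and Aacs passed for high dose against control, with differences of 0.0071 for Mylip, 0.058 for Fdps, 0.081 for Msmo1 and 0.19 for Aacs.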
